A study of Caenorhabditis elegans with 6 samples.

Results

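The miRNA array carried 17 oligos for the names miR-256 to miR-273, a run of numbers that holds computationally predicted miRNAs of Caenorhabditis elegans and in which no oligo was named miR-263. They were chosen by name alone, from 108 miRNA oligos, and each was printed as 4 spots, 68 spots of 432. A miRNA is a short RNA cut by Dicer from a hairpin precursor and loaded into an Argonaute protein, which it guides to complementary sites in messenger RNAs. Prediction programs look for such hairpins conserved between related nematode genomes, and a predicted name does not by itself show that the RNA is made at a given stage. Among these names, miR-273 is known from studies of the ASE taste neurons, where it was placed upstream of the transcription factor DIE-1.

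Whole adults of 2 temperature-sensitive mutants were compared, fem-3(q20ts) and fem-2(b245ts), both grown at 25 °C and collected 24 hours past late L4, on day 1 of adulthood. At this temperature the gain-of-function allele fem-3(q20ts) gives a germ line that makes sperm and no oocytes, and the loss-of-function allele fem-2(b245ts) one that makes oocytes and no sperm, in both cases with a soma of the female or hermaphrodite type. Each genotype had 2 biological replicates, replicate 1 on 2 technical arrays and replicate 2 on 1 array. No wild-type, larval or male sample was analysed here, so a name not detected below was not detected in these adults on these arrays.

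The authors' scaling had given the 6 arrays one total, and the median spot on an array had an intensity of 101 to 178. As a check of the genotype labels, miR-35 to miR-41, which are abundant in oocytes and embryos, were 14.9-fold to 74.5-fold lower in fem-3(q20ts) (limma adjusted p from 0.000585 to 0.00409). The largest of these folds are inexact, because 4 of the 7 reached the blank on fem-3(q20ts) arrays. Of the 3 arrays, miR-41 was above the blank on 0, miR-37 and miR-40 on 1 each and miR-38 on 2. The 48.1-fold of miR-41 is thus a ratio to signal at the blank. The somatic miRNAs lin-4, let-7 and miR-1 were above the blank on 3 of 3 arrays of each genotype. In fem-3(q20ts) lin-4 was 2.27-fold higher, let-7 1.10-fold higher and miR-1 1.13-fold lower (limma adjusted p = 0.299, 0.909 and 0.866). In whole animals, fewer cells of a type and less RNA per cell cannot be told apart.

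The blank on each array was a group of 32 spots named Buffer in the files, and the Buffer level was defined as the 95th percentile of their intensities. This level was 36.5, 41.5 and 19.0 on the fem-3(q20ts) arrays (replicate 1 arrays 1 and 2, then replicate 2), and 127, 114 and 21.4 on the fem-2(b245ts) arrays in the same order. The Buffer level of replicate 1 was therefore far higher in fem-2(b245ts), where a miRNA of the same intensity is less readily called. All Buffer spots lay in rows 10 to 12 of array set B, one of 4 printed sets. The 8 in row 10 averaged 22.5, 28.2 and 4.02 on the fem-3(q20ts) arrays and 103, 82.6 and 4.62 on the fem-2(b245ts) arrays. The 24 in rows 11 and 12 averaged 15.6, 9.32 and 5.28 on the fem-3(q20ts) arrays and 22.6, 11.6 and 9.31 on the fem-2(b245ts) arrays. On the replicate 1 arrays row 10 was thus the brighter part of the blank, and on the replicate 2 arrays it was the dimmer part. A second level was for that reason taken from rows 11 and 12 alone, a choice made after these values were seen. It was 34.4, 13.9 and 24.4 on the fem-3(q20ts) arrays and 45.5, 16.8 and 22.4 on the fem-2(b245ts) arrays.

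The first question was which of the 17 names gave signal above the blank in adults. None of them was above the Buffer level on all 6 arrays, against 59 of the other 91 miRNA oligos (64.8%) and 54.6% of all 108. For the nearest lower numbers, miR-227 to miR-255, the count was 8 of 29 (27.6%). By array, 3, 3 and 13 of the 17 exceeded the level on the fem-3(q20ts) arrays, where 79.6%, 78.7% and 94.4% of all miRNA oligos did. On the fem-2(b245ts) arrays 0, 0 and 13 did, beside 64.8%, 58.3% and 96.3% of all. By this level the replicate 2 arrays gave most of the detections. With the level from rows 11 and 12 they did not: 3, 12 and 13 of the 17 exceeded it on the fem-3(q20ts) arrays (79.6%, 93.5% and 92.6% of all miRNA oligos), and 7, 13 and 13 on the fem-2(b245ts) arrays (87%, 96.3% and 96.3%). By that level 3 of 17 names were above the blank on all 6 arrays (77.8% of all miRNA oligos), namely miR-259, miR-265 and miR-271. These counts set the names beside other oligos as a description, and the difference was not tested.

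The signal over the blank was then tested across samples. The mean of the 2 genotypes was set against the Buffer level of the same arrays with limma, two-sided, over all 108 miRNA oligos. It called 0 of the 17 names above the level at an adjusted p threshold of 0.05, 0 also at an unadjusted p under 0.05, and 60.2% of all miRNA oligos. The fit gave every oligo one pooled standard error, 0.83 on the log2 scale, and the shift of the Buffer level between samples enters all of them. A replicate block takes up the part of that shift common to both genotypes, and the rest stays. Its standard error was 0.40 for each of the 17 names. With it 3 names passed (79.6% of all miRNA oligos), miR-259, miR-265 and miR-271. In that fit miR-262, miR-266, miR-268 and miR-269 passed below the level (limma adjusted p from 0.00389 to 0.0133). How many of all 108 oligos passed below it there was not counted, and with no block 0 did. Without replicate 1 of fem-2(b245ts), whose Buffer level was high, these names lay at -0.56, -0.51, -0.58 and -0.22 on the log2 scale. Against the level from rows 11 and 12, 6 names passed in limma (86.1% of all), and miR-258, miR-267 and miR-272 joined miR-259, miR-265 and miR-271. Without replicate 1 of fem-2(b245ts), 6 names also passed (83.3% of all), with miR-264, miR-267 and miR-272 added to miR-259, miR-265 and miR-271.

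miR-259, miR-265 and miR-271 were therefore the 3 names with the most regular signal. They were picked by these same levels and fits, so the p-values given for each below restate that choice. miR-259 had intensities of 65.8 and 82.8 in replicate 1 and 115 in replicate 2 of fem-3(q20ts), against 62.0 and 53.8 in replicate 1 and 80.9 in replicate 2 of fem-2(b245ts). All 4 of its spots were above the Buffer level on every fem-3(q20ts) array, and on fem-2(b245ts) arrays in replicate 2 alone. It was the one name of the 3 with the higher mean in fem-3(q20ts), at 94.7 ± 28.8 there and 69.4 ± 16.2 in fem-2(b245ts) (SD, n = 2 biological samples each). Averaged over the genotypes, miR-259 lay 1.09 above the Buffer level on the log2 scale (limma adjusted p = 0.248, or 0.0101 with the replicate block). Against the level from rows 11 and 12 it lay 1.72 above, a 3.28-fold excess (SE 0.26, limma adjusted p = 6.39e-06).

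miR-265 had intensities of 56.9 and 66.9 in replicate 1 and 71.6 in replicate 2 of fem-3(q20ts), against 59.7 and 83.2 in replicate 1 and 146 in replicate 2 of fem-2(b245ts). The ranges of the genotypes overlapped, and the replicate 2 array of fem-2(b245ts) stood highest. Its excess was 1.11 on the log2 scale over the Buffer level (limma adjusted p = 0.241, or 0.00870 with the replicate block) and 1.74 over the level from rows 11 and 12 (SE 0.27, limma adjusted p = 1.03e-05).

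miR-271 had intensities of 40.5 and 48.3 in replicate 1 and 72.5 in replicate 2 of fem-3(q20ts), against 63.8 and 83.1 in replicate 1 and 146 in replicate 2 of fem-2(b245ts). Each fem-3(q20ts) sample was lower than the fem-2(b245ts) sample of the same number, as was also so for miR-265, and the array ranges overlapped. The direction was the same in both replicates for 6 of the 7 names tested between genotypes below, and for 73 of the 94 oligos tested. On the replicate 1 arrays of fem-3(q20ts) it lay only 1.11 and 1.16 times above the Buffer level. The excess averaged over the genotypes was 1.03 on the log2 scale (limma adjusted p = 0.269, or 0.0142 with the replicate block), and 1.66 over the level from rows 11 and 12 (SE 0.28, limma adjusted p = 1.88e-05).

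A further measure came from the scanner files of the 4 replicate 1 arrays, which give a signal-to-noise score for each spot against its own local background and so do not use the Buffer spots. By a score above 3 on at least 3 of 4 spots, miR-259 was the sole name detected on each fem-3(q20ts) array, 1 of 17 on both, where 66.7% and 74.1% of all miRNA oligos were. On the fem-2(b245ts) arrays 0 and 3 of 17 were, beside 55.6% and 78.7% of all, and those 3 were miR-258, miR-265 and miR-271. None was detected by this score on all 4 arrays, which 46.3% of all miRNA oligos were. Scores above 3 were also given to 0 and 4 of the 32 Buffer spots on the fem-3(q20ts) arrays and to 1 and 8 on the fem-2(b245ts) arrays. The median local background of the 68 spots differed from that of all spots of the same array by -1 and 2 raw units on the fem-3(q20ts) arrays and by -5 and 0.5 on the fem-2(b245ts) arrays.

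A second group of names was above the Buffer level in replicate 2 of both genotypes and below it in replicate 1 of both. miR-264 had intensities of 14.0 and 14.6 in replicate 1 and 124 in replicate 2 of fem-3(q20ts), against 16.1 and 16.4 in replicate 1 and 206 in replicate 2 of fem-2(b245ts). Its replicate 1 values were not above the Buffer level and give only a bound, taken per array at the lowest miRNA signal above that level. Replicate 2 was at least 2.79-fold above replicate 1 in fem-3(q20ts) and at least 1.62-fold above it in fem-2(b245ts). miR-267 behaved in the same way, with 14.0 and 14.5 in replicate 1 and 116 in replicate 2 of fem-3(q20ts), and 16.7, 19.3 and 187 in fem-2(b245ts). Its replicate 2 was at least 2.62-fold above replicate 1 in fem-3(q20ts) and at least 1.46-fold above it in fem-2(b245ts). The 4 spots of both oligos were all above the Buffer level on the replicate 2 arrays and none was on the replicate 1 arrays. Against the level from rows 11 and 12, miR-264 was above the blank on 1 of the replicate 1 arrays of fem-3(q20ts) and on 0 of those of fem-2(b245ts), and miR-267 on 1 of each.

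miR-270, miR-272 and miR-273 shared this pattern at lower levels. The intensity of miR-270 was 17.3 and 12.2 in replicate 1 and 57.5 in replicate 2 of fem-3(q20ts), against 16.3, 17.7 and 81.8 in fem-2(b245ts). For miR-272 the values were 17.5, 23.0 and 67.1 in fem-3(q20ts) and 23.3, 35.8 and 112 in fem-2(b245ts), in the same order of arrays. miR-273, the name linked to the ASE neurons, had 15.2, 13.6 and 32.7 in fem-3(q20ts) and 12.3, 17.8 and 55.3 in fem-2(b245ts). In each of the 3, replicate 2 stood above both technical arrays of replicate 1 in both genotypes. As bounds, replicate 2 was at least 1.30-fold above replicate 1 for miR-270 and at least 1.52-fold above it for miR-272 in fem-3(q20ts), and no bound over 1 was reached for them in fem-2(b245ts) or for miR-273 in either genotype. miR-272 was above the level from rows 11 and 12 on 1 of the replicate 1 arrays of each genotype.

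Of the 17 names, 9 were above the Buffer level on both replicate 2 arrays and on none of the 4 replicate 1 arrays (52.9%), and 3 of the other 91 miRNA oligos were (3.3%), all 3 among the 29 from miR-227 to miR-255 (10.3%). The Buffer level was lower in replicate 2, and with the level from rows 11 and 12 the count was 0 of 17 and 0 of the other 91. The count of 9 therefore depended on the choice of Buffer spots. For miR-264 it turned on array 2 of replicate 1 of fem-3(q20ts), at 14.6 against a level of 13.9. For miR-270 and miR-273 it turned on array 2 of replicate 1 of fem-2(b245ts), at 17.7 and 17.8 against 16.8. The intensities of miR-264 and miR-267 were higher in replicate 2 than on either replicate 1 array in both genotypes. So were those of miR-259, miR-260, miR-265 and miR-269 to miR-273. How many other miRNA oligos had this order was not counted, but they too were brighter in replicate 2 at the median. The median of replicate 2 minus replicate 1, on floored log2 values, was 0.73 for the 17 and 0.16 for the other 91 in fem-3(q20ts). In fem-2(b245ts) it was 0.47 and 0.29. On floored log2 values, replicate 2 exceeded replicate 1 by over 2 in both genotypes for 2 of the 17 names, miR-264 and miR-267. This held for 3 of all 108 miRNA oligos.

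The oligos miR-256 to miR-262 occupied rows 7 to 9 of set B, and miR-264 to miR-273 rows 9 to 12 of set C, where 3 oligos share a row. Columns 5 to 8 of set C held miR-264, miR-267, miR-270 and miR-273, in rows 9, 10, 11 and 12, so that 4 of the 5 names described above were printed one below the other. The fifth, miR-272, was in columns 1 to 4 of row 12. The rest of the 9 names counted above, miR-257, miR-258, miR-260 and miR-261, were in rows 7 and 8 of set B. miR-266 and miR-268, beside miR-267 in row 10, were below the Buffer level on all arrays. The scanner layout was read from the replicate 1 arrays and joined to the replicate 2 arrays by spot number, so the names on the replicate 2 arrays rest on an unchanged layout. The part of position, of layout and of the RNA samples in the higher replicate 2 signal was not tested.

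Among miR-256 to miR-262, all but miR-259 were below the Buffer level on all 4 replicate 1 arrays. Against the level from rows 11 and 12, miR-257, miR-258 and miR-260 were above the blank on 5 of 6 arrays. By that level miR-261 was above it on 4 arrays and miR-256 on 3. miR-258, which has 2 annotated genes, had intensities of 19.5, 29.4 and 73.9 in fem-3(q20ts) (replicate 1 arrays 1 and 2, then replicate 2), against 80.3, 43.2 and 40.1 in fem-2(b245ts). Its order between the genotypes was opposite in the 2 replicates. On the replicate 2 array of fem-3(q20ts), 1 of its 4 spots stood at 179 and the others at 32.1 to 47.2. miR-260 had 18.1, 23.1 and 28.1 in fem-3(q20ts) and 55.1, 35.2 and 55.5 in fem-2(b245ts), so that the ranges of the genotypes did not overlap, but its mean signal was too low for the test described below. miR-257 had 13.9, 18.0 and 34.5 in fem-3(q20ts) and 52.7, 24.3 and 37.5 in fem-2(b245ts).

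In miR-256 and miR-261 single spots set the mean. miR-256 had 13.4, 25.8 and 56.3 in fem-3(q20ts) and 27.5, 23.2 and 15.8 in fem-2(b245ts), and its value of 56.3 came from 1 spot at 184 beside spots of 10.1, 14.8 and 16.1. The median of those 4 spots, 15.5, was below the Buffer level of 19.0. Another of its spots, on array 1 of replicate 1 of fem-3(q20ts), had 5% saturated pixels in the scanner file and a scaled intensity of 4010, where the deposited table holds 13.4, the mean of the other 3 spots. The deposited value was used. miR-261 had 7.25, 9.71 and 27.4 in fem-3(q20ts) and 50.3, 17.1 and 33.7 in fem-2(b245ts), where the last value came from spots of 9.50, 16.5, 16.7 and 91.9. With the median of the 4 spots, 16.6, miR-261 was below the Buffer level of 21.4 on that array.

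Of the remaining names, miR-262, miR-266 and miR-268 were above the Buffer level on 0 of 6 arrays. miR-262 had 5.41, 9.35 and 9.81 in fem-3(q20ts) and 19.4, 16.5 and 18.6 in fem-2(b245ts). miR-266 ranged from 12.4 to 17.02 in fem-3(q20ts) and from 17.2 to 21.5 in fem-2(b245ts). For miR-268 the ranges were 7.35 to 17.9 in fem-3(q20ts) and 14.2 to 21.7 in fem-2(b245ts). These 3 oligos were the only ones of the 108 above the level on no array. miR-262 alone was also above the level from rows 11 and 12 on none, and in limma miR-262 and miR-268 fell below that level (-0.60 and -0.58 on the log2 scale, adjusted p = 0.0325 and 0.0404). miR-269 was above the Buffer level on 1 array, at 27.4 in replicate 2 of fem-2(b245ts), while its other fem-2(b245ts) values were 14.0 and 16.4 and its fem-3(q20ts) values 12.6, 11.04 and 18.9. In 3 names, miR-260, miR-262 and miR-266, every fem-3(q20ts) array was lower than every fem-2(b245ts) array, which held for 14.8% of all miRNA oligos. The opposite order was found for 0 of the 17 and 13.9% of all. For names at the blank the arrays give only a bound, and their number limits the precision.

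The second question was whether any of these names differed between adults with a spermatogenic and adults with an oogenic germ line. Differences are given on the log2 scale, so that a negative one means less signal in fem-3(q20ts). The test took in the oligos whose mean log2 value over the biological samples lay above that of the Buffer level, which corresponds to an intensity of 37.2. These were 94 of 108 miRNA oligos and 7 of the 17 names, miR-258, miR-259, miR-264, miR-265, miR-267, miR-271 and miR-272. The mean of miR-258 and of miR-272 lay above that intensity in fem-2(b245ts) and below it in fem-3(q20ts). Such oligos entered through the genotype where they were brighter, which favours a negative difference. The same held for miR-37, miR-40 and miR-41 among the 94. None of the 7 passed in limma (0 also at an unadjusted p under 0.05), where 8.51% of the 94 passed in either direction. With the replicate block 0 of the 7 passed in limma, where 9 of the 94 did. In that fit 2 of the 7 had an unadjusted p under 0.05, a count not taken over the 94. With no filter 17 names were tested and 0 passed, where 8 of all 108 miRNA oligos did. With the filter set on rows 11 and 12 it was 0 of 11 names, where 8 of 100 oligos passed.

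On the deposited scale, the largest difference among the 7 was that of miR-271, at -0.86 (SE 0.48, limma adjusted p = 0.489), or 1.82-fold lower in fem-3(q20ts). It was -0.73 in replicate 1 and -0.998 in replicate 2, and with the replicate block its limma adjusted p was 0.108. miR-272 was at -0.64 (SE 0.87) and miR-265 at -0.62 (SE 0.45), with limma adjusted p-values of 0.809 and 0.625. With the replicate block their SEs were 0.18 and 0.27, and their limma adjusted p-values 0.142 and 0.231. miR-259, at 0.45 (SE 0.38, limma adjusted p = 0.625), was positive in both replicates, at 0.36 and 0.53. After quantile normalization, median centring and scaling on the spike control miR-259 had the largest difference, at 1.10, 0.79 and 1.01, against -0.36, -0.52 and -0.30 for miR-271, and neither passed. miR-258 was at -0.36, with -1.27 in replicate 1 and 0.55 in replicate 2.

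The differences of miR-264 and miR-267 were -0.44 each, with standard errors of 1.53 and 1.44 and a limma adjusted p of 0.909 for both. With the replicate block the standard errors of miR-264 and miR-267 were 0.23 and 0.22, and their limma adjusted p-values 0.272 and 0.264. Within replicate 2, where alone they were above the Buffer level, miR-264 was at -0.74 and miR-267 at -0.69, each from 1 array per genotype. Within replicate 1 they were at -0.14 and -0.19, from signal below that level.

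Before any filter, the signal of 15 of the 17 names was lower on average in fem-3(q20ts) and that of 2, miR-256 and miR-259, was higher, against 52 lower and 56 higher of all 108, but after quantile normalization the 17 split into 6 lower and 11 higher, and on the spike control into 5 and 12. The median difference was -0.44 for the 17 and 0.01 for all 108 on the deposited scale, 0.11 and 0.37 after quantile normalization, 0.12 and 0.58 on the spike control, and -0.09 and 0.36 with centring on the median. The median of the 17 thus lay below that of all miRNA oligos under each of these scalings, while its sign did not hold. The blank moved in the same direction: the median Buffer spot was 14.0, 10.3 and 3.56 on the fem-3(q20ts) arrays and 25.9, 12.2 and 5.51 on the fem-2(b245ts) arrays. After subtraction of that median 15 of the 17 were again lower, with a median of -0.27, against 0.10 for all 108. The part of the blank in the lower signal was not tested. The largest difference of the 17 before the filter was that of miR-260, -0.99 (1.99-fold lower in fem-3(q20ts), unadjusted p = 0.0357 and limma adjusted p = 0.350 with no filter), and 1 of 3 arrays of each genotype had it over the Buffer level.

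All 17 names matched the RefSeq annotation of WBcel235, to 18 genes, since miR-258 matched mir-258.1 and mir-258.2. Of these genes 5 lie on chromosome X, 5 on V, 4 on II, 3 on IV and 1 on III. Those of the names with the most regular signal are on V (miR-259), IV (miR-265) and X (miR-271), and those of miR-264 and miR-267, brighter in replicate 2, on X and II. The interval of a protein-coding gene encloses 5 of the 18: mir-265 lies within T23F6.5, mir-267 within nhr-234, which encodes a nuclear hormone receptor, mir-268 within glb-3, a globin gene, mir-273 within pde-3, a phosphodiesterase gene, and mir-261 within both B0034.1 and B0034.4. Of these 5, mir-265 belongs to a name with signal above the level from rows 11 and 12 on all arrays and mir-268 to a name above the Buffer level on none. The table used gives no exons or strands. Outside such genes, mir-259 lies between ppm-1.A and F25D1.8 and mir-271 between unc-78 and dhs-27. The oligo and mature miRNA sequences were not analysed here, so seeds were not compared.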

How the data were processed

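Short RNAs purified on gels were ligated to a Cy3 oligonucleotide and put on spotted arrays read in 1 colour, per the labels' protocols. The deposited value table holds spot intensity that the authors scaled on each array's total, which was equal in all columns. For the replicate 1 arrays, scanner files gave spot names, raw intensity, a signal-to-noise score and the percent of saturated pixels, per the file headers. The scanner is not given in the sources used here.

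A floor of 12.8, taken at the 10th percentile of values above 0, was set before log2 was taken. Spots and then technical arrays were averaged. Per-array intensities in the text are means of spots without the floor. Tests were made with limma 3.58.1 (lmFit, eBayes) under R 4.3.3, with the Benjamini-Hochberg procedure and a threshold of 0.05, and the fit was tested on simulated data. Exact permutation of 2 against 2 samples reaches no two-sided p under 0.333, so each p rests on variance shared across oligos.

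Same-numbered samples share a date-like token in their labels, and their replicate differences correlated between genotypes (r = 0.711 over 94 oligos), so the numbers were taken to pair the samples. The main fits did not use this pairing, and the replicate block, which does, was run as an alternative. Alternatives covered the blank, floor, scaling, filter, spots, block and samples. Every oligo numbered 256 to 273 is named. The oligos, lists and tests were chosen with earlier results of these data known.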

Additional observations from a re-analysis of the deposited data

Results flagged for a closer look

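2 names outside the comparisons drew attention because they were above the Buffer level on every array at one printed position and below it on every array at another. tncR23, printed in row 9 of set B beside the spike control and in row 1 of set C, had 1671, 1110 and 462 on the fem-3(q20ts) arrays and 4989, 3721 and 547 on the fem-2(b245ts) arrays in set B. In set C, the set of miR-264 to miR-273, the same name had 9.28, 9.04 and 5.19 on the fem-3(q20ts) arrays and 9.28, 8.52 and 13.9 on the fem-2(b245ts) arrays. tncR8-1 had 117, 179 and 54.1 on the fem-3(q20ts) arrays and 549, 569 and 70.1 on the fem-2(b245ts) arrays in row 10 of set B, directly before the row 10 Buffer spots. In row 9 of set C, next to miR-264, it had 22.1, 40.4 and 5.25 on the fem-3(q20ts) arrays and 19.5, 17.2 and 10.7 on the fem-2(b245ts) arrays. Against the level from rows 11 and 12, tncR8-1 in set C was above the blank on array 2 of replicate 1 of both genotypes. That level was 13.9 there in fem-3(q20ts) and 16.8 in fem-2(b245ts). Which position held the named oligo was not tested.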

How the results depend on the processing

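The count of names above Buffer in both replicate 2 arrays alone fell to 0 with the level from rows 11 and 12, against 9. The count of names above the Buffer level on all arrays was 0 under the highest Buffer spot, the mean plus 2 SD, the median of the spots, all 4 spots and the scanner score, and 3 with the level from rows 11 and 12. Leaving out 1 biological sample gave 0 to 3, the 3 without fem-2(b245ts) replicate 1. The count passing the above-Buffer test in limma was 0 under both other levels and both other floors, 3 with the replicate block and 6 with the level from rows 11 and 12. Leaving out 1 sample gave 0 to 6, the 6 without fem-2(b245ts) replicate 1. The count called between genotypes was 0 in all 14 alternatives, including the replicate block, each sample left out and the 6 arrays with duplicateCorrelation. The filter on all 6 arrays left no name to test. Of 84 alternative differences of the 7 tested names, 71 kept their sign and 13 did not. After quantile normalization miR-258 was at 0.32, miR-264 at 0.093 and miR-267 at 0.11, and on the spike control at 0.20, 0.12 and 0.12. Leaving out 1 sample gave -0.98 (without fem-3(q20ts) replicate 2) to 0.26 (without fem-3(q20ts) replicate 1) for miR-258. From without fem-2(b245ts) replicate 1 to without fem-2(b245ts) replicate 2 it gave -2.28 to 1.39 for miR-264, -2.14 to 1.26 for miR-267 and -1.62 to 0.35 for miR-272, and without fem-3(q20ts) replicate 1 these were at 1.10, 1.01 and 0.23. The other tested names kept their sign but moved: on quantile normalization, the spike control and 1 sample left out, miR-259 was at 1.10, 1.01 and 0.13 to 0.77, miR-265 at -0.15, -0.06 and -1.16 to -0.08, and miR-271 at -0.36, -0.30 and -1.36 to -0.36. The median difference of all 94 tested oligos moved from 0.14 to 0.44, 0.48 and 0.70 under quantile normalization, median centring and the spike control. The cause of these changes was not tested.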
